A study of Mus musculus with 16 samples.

Results

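Voltage-gated calcium channels open when a neuron is depolarized and let calcium into the cell. The pore and the voltage sensor of each channel lie in its alpha-1 subunit, and the alpha-1 genes fall into families named after the currents they carry. L-type channels (Cacna1c, Cacna1d) couple activity to calcium signalling in cell bodies and dendrites, P/Q-, N- and R-type channels (Cacna1a, Cacna1b, Cacna1e) serve transmitter release and dendritic calcium entry, and T-type channels (Cacna1g, Cacna1h, Cacna1i) open near the resting potential and support burst firing. Auxiliary alpha-2-delta and beta subunits bring the pore to the membrane and tune its gating.

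The 8 genes described here, Cacna1a, Cacna1b, Cacna1c, Cacna1d, Cacna1e, Cacna1g, Cacna1h and Cacna1i, were taken by name from a table of 18424 genes. The list was partly chosen by measured values: Cacna1i was on it because it ranked among the top genes for fluoxetine in WT mice, at place 10 of 16833 by p-value in WT-Flx versus WT-Veh. That comparison, and the others that contain those samples for Cacna1i, are therefore given as a description, with no test. The remaining genes entered as its family members.

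RNA was sequenced from the medial prefrontal cortex, labelled prefrontal cortex, of 16 male C57BL/6N mice at postnatal day 120. Of these, 8 mice carried 1 mutated copy of Arid1b, which encodes a subunit of a chromatin remodelling complex (HT, Arid1b+/−, a single line with a protein-truncating change in exon 5), and 8 were wild type (WT). All dams drank water with 0.2% saccharin while the pups were between postnatal days 3 and 21, and for the Flx groups the water also held fluoxetine, a serotonin reuptake inhibitor, at 0.1 mg/ml, which reached the pups through the milk. Each of the groups HT-Veh, HT-Flx, WT-Veh and WT-Flx had 4 mice, 1 sample per mouse, and no untreated group without saccharin was analysed here.

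Values are normalized read counts, that is, estimated reads per gene after the authors' scaling between samples, and column totals differed little (92.8 to 104% of their mean). The deposited values gave only an approximate depth of 23.4 to 33.1 M reads per sample. The targeted gene followed the labels in its means, with 1544.9 to 2005 in the 8 HT samples and 1787 to 2831 in the 8 WT samples, so that the genotypes overlapped. Glutamatergic cortical neuron markers were present in every sample, with a sum of 51819 to 69744 over 6 genes. Markers of the olfactory bulb were not uniform. All 9 of them were detected in every group, and their summed value ran from 358 to 10842 in WT-Veh, 526 to 8352 in WT-Flx, 370 to 3252 in HT-Veh and 343 to 530 in HT-Flx, where the defining marker Eomes was at 0 in 1 sample. The bulb score, the mean log2(value + 1) of these markers, was above 6 in 5 samples (WT-Veh 1, WT-Flx 1, 2 and 4, HT-Veh 4) and between 4.17 and 5.24 in the other 11. These 5 samples stand apart, and several results below, though not all, are also given without them or with the score as a covariate. In bulk tissue, fewer cells of a type and less RNA per cell cannot be told apart.

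The 8 genes lie on 8 chromosomes (GRCm38): Cacna1a (ENSMUSG00000034656) at chr8:84388440-84640246, Cacna1b (ENSMUSG00000004113) at chr2:24603887-24763152, Cacna1c (ENSMUSG00000051331) at chr6:118587240-119196418 and Cacna1d (ENSMUSG00000015968) at chr14:30039939-30491455. Cacna1e (ENSMUSG00000004110) lies at chr1:154390731-154884501, Cacna1g (ENSMUSG00000020866) at chr11:94408391-94474198, Cacna1h (ENSMUSG00000024112) at chr17:25374285-25433783 and Cacna1i (ENSMUSG00000022416) at chr15:80287238-80398279. Since the genes arose from a common ancestor, reads from conserved exons could in principle be assigned to the wrong member. The exact coding matches between them were short. Of all 31-base stretches in the transcripts of a gene, 0.861% in Cacna1g, 0.797% in Cacna1i and 0.663% in Cacna1h also occurred in another of the 8 genes, and at most 0.141% did so in the other 5.

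A short fragment that lies within an exact coding match cannot be assigned to 1 member. Per the study's methods, the reads sequenced were longer than each match below. The longest exact coding matches are shown here. They come from the GENCODE M21 transcripts on GRCm38 and are written 5′ to 3′ along the coding strand. Capitals in the T-type pairs mark the longest stretch that is also present in the T-type gene outside the pair.
Cacna1g and Cacna1i: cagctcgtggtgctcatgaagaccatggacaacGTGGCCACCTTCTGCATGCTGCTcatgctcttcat
Cacna1h and Cacna1i: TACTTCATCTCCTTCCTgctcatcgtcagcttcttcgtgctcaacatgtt
Cacna1g and Cacna1h: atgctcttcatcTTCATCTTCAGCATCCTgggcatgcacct
Cacna1c and Cacna1d: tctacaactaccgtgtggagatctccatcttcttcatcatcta
Cacna1a and Cacna1b: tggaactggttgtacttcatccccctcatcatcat
The Cacna1g and Cacna1i match spanned 68 bases, at chr11:94443187-94443254 (minus strand) and chr15:80369688-80369755 (plus strand), inside a single exon of each gene. The Cacna1h and Cacna1i match had 50 bases and lay at chr17:25383183-25383232 (minus strand) and chr15:80378189-80378238 (plus strand). The Cacna1g and Cacna1h match of 41 bases crossed an exon junction in both genes, at chr11:94443062-94443197 and chr17:25388145-25388584, both on the minus strand. Outside the T-type genes, Cacna1c and Cacna1d shared 43 bases (chr6:118654366-118654408 and chr14:30099154-30099196, both minus strand) and Cacna1a and Cacna1b shared 35 bases (chr8:84533418-84533452, plus strand, and chr2:24721353-24721387, minus strand). The libraries were stranded, which bears on Cacna1a, Cacna1d and Cacna1h, whose exons overlap a gene on the opposite strand (Gm16183, Chdh and Tpsg1).

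All 8 genes were well expressed in every sample, with the lowest single value, 1713 for Cacna1h, far above the filter of 10. Levels between genes were compared per kilobase of exon, that is, per 1 kb of the union of all annotated exons. On this scale Cacna1a, the P/Q-type pore gene, was highest (573 ± 47.7, SD, n = 16), followed by Cacna1b (470 ± 81.7), Cacna1g (399 ± 59.9), Cacna1e (362 ± 54.3) and Cacna1i (358 ± 53.8). Cacna1h (208 ± 28.9), Cacna1d (206 ± 18.8) and Cacna1c (137 ± 14.2) were lower. The ranges of neighbours in this order overlapped for every pair. Within samples, Cacna1i was above Cacna1h in 16 of 16 and Cacna1d above Cacna1c in 16 of 16, whereas Cacna1e and Cacna1i, and Cacna1h and Cacna1d, each exchanged places in 8 of 16 samples. P/Q-, N- and R-type genes together made up 51.7% ± 3.11 of the summed level per kilobase of the 8 genes, T-type genes 35.6% ± 2.93 and L-type genes 12.7% ± 1.03 (SD, n = 16). With lengths from the longest coding transcript the order below Cacna1a changed to Cacna1e, Cacna1g, Cacna1b, Cacna1i, Cacna1d, Cacna1h and Cacna1c, so ranks between Cacna1b, Cacna1e and Cacna1g, and between Cacna1d and Cacna1h, depend on the length used.

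**Figure D1:**
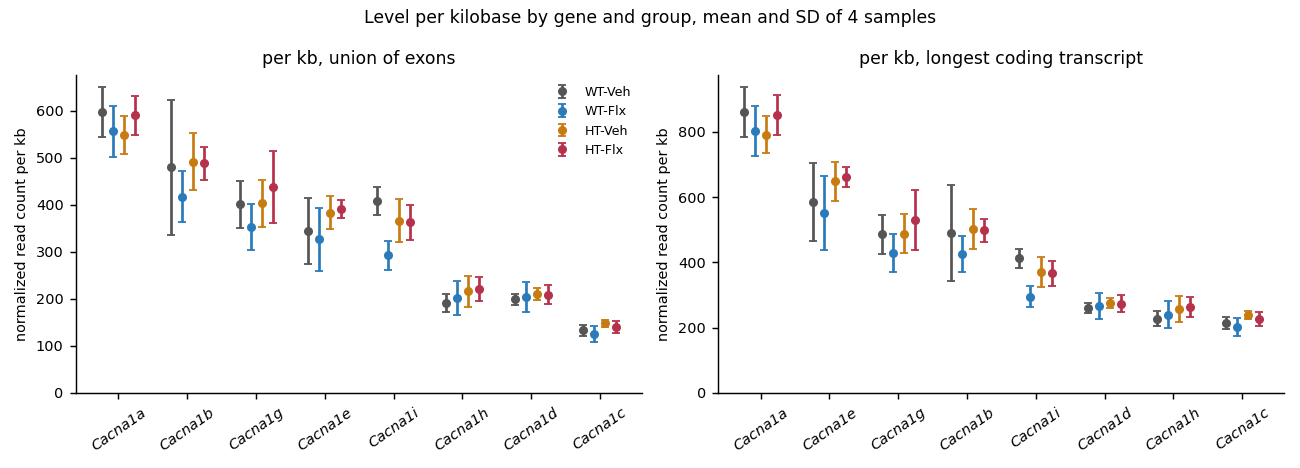
Normalized read count per kilobase (vertical axis) of the 8 alpha-1 genes in the 4 groups, using all exons (left) or the longest coding transcript (right) as length; points are means and bars SD of 4 samples. Cacna1a is highest under both lengths (573 and 826 over all 16 samples) and Cacna1c is lowest (137 and 220).

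The remaining alpha-1 genes, known from other tissues, were near the filter. Cacna1s, the skeletal muscle pore gene, ran from 7.89 to 130 and Cacna1f, the retinal one, from 2.69 to 43.9. The highest Cacna1s value was in WT-Veh 1, the sample with the highest bulb score.

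Cacna1i was lower after early fluoxetine in WT mice, which is the pattern it was chosen for. It encodes a T-type pore. In WT-Veh mice Cacna1i was at 3684, 4050, 3994 and 4380, and in WT-Flx mice at 2444, 2979, 2966 and 3161 (normalized read counts). Every WT-Flx sample was below every WT-Veh sample. The WT-Flx mean was 71.7% of the WT-Veh mean (2888 ± 309 against 4027 ± 285, SD, n = 4), a log2 change of -0.48 (SE 0.099). Across all genes tested in this comparison, 2.89% had groups that did not overlap, 1.09% with WT-Flx lower. No other alpha-1 gene had groups that did not overlap here.

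In HT mice no difference in Cacna1i was detected after the same treatment. HT-Veh mice were at 4268, 3212, 3461 and 3515 and HT-Flx mice at 3055, 3819, 3814 and 3624. The ranges overlapped in part (3212 to 4268 in HT-Veh and 3055 to 3819 in HT-Flx), with HT-Veh 1 the highest and HT-Flx 1 the lowest of the 8. The log2 change was -0.01 (SE 0.099, 95% interval -0.23 to 0.20, limma adjusted p = 1.00). The exact permutation test of this difference gave p = 0.943 (two-sided, smallest possible 0.0286). The fluoxetine change in HT minus that in WT was 0.47 (SE 0.145), which uses the samples that chose the gene and is a description.

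The 4 groups of Cacna1i thus had means of 4027 ± 285 (WT-Veh), 3614 ± 455 (HT-Veh), 3578 ± 360 (HT-Flx) and 2888 ± 309 (WT-Flx) (SD, n = 4). Neighbouring groups in this order overlapped in each case. Of the HT-Veh samples, 3 were below the lowest WT-Veh sample (log2 change -0.16, SE 0.093), and of the HT-Flx samples, 3 were above the highest WT-Flx sample (0.31, SE 0.108). Over both treatments HT mice averaged 104% of WT mice (log2 change 0.07, SE 0.089, not tested).

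**Figure D2:**
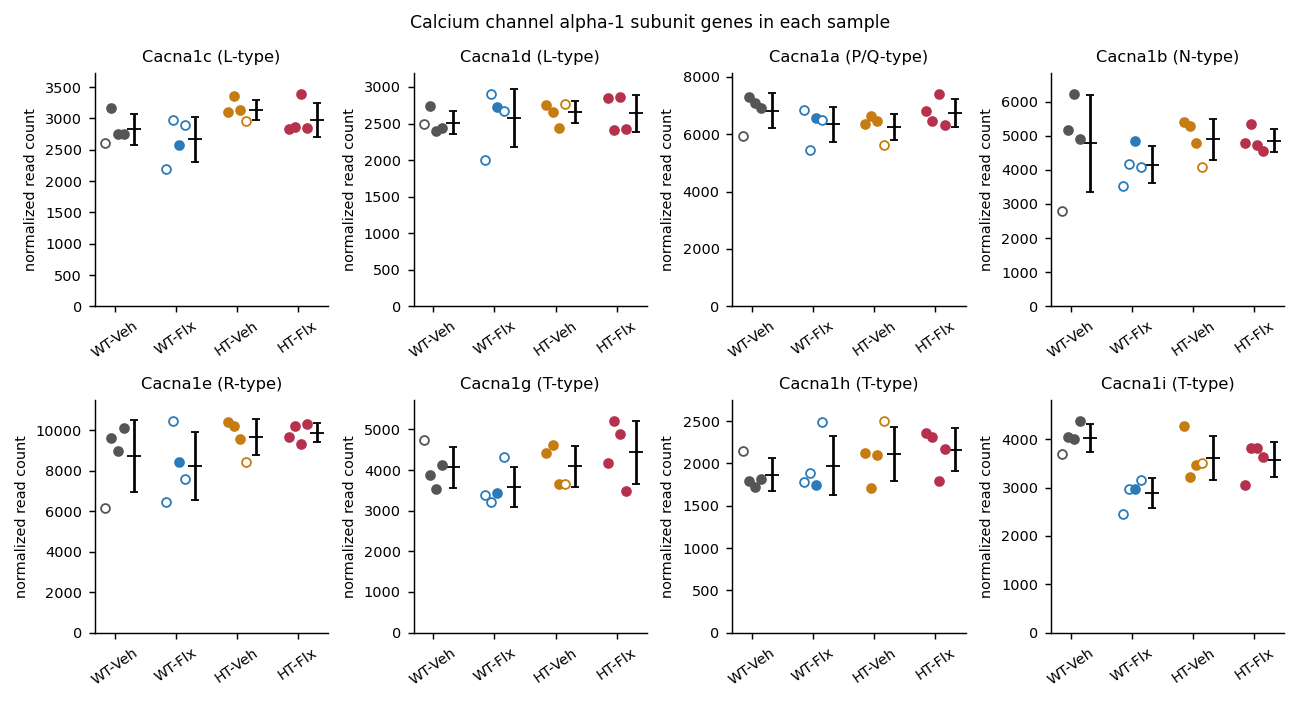
Normalized read counts (vertical axis, from 0) of the 8 alpha-1 genes in each of the 16 samples by group; points are mice 1 to 4 from left to right, black marks are mean and SD, and open points are the 5 samples with a bulb score above 6. The 4 WT-Flx values of Cacna1i lie between 2444 and 3161, all below the 4 WT-Veh values (3684 to 4380).

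Bulb markers moved with this comparison: all 9 had a higher mean in WT-Flx than in WT-Veh, and so did all 10 striatum markers, whose summed value ran from 7140 to 15641 in WT-Veh and from 9855 to 15670 in WT-Flx. The log2 change of Cacna1i was -0.46 with the bulb score as a covariate and -0.47 with the striatum score as a covariate. It was -0.48 without the 5 samples of high bulb score, where 1 WT-Flx sample remained. The part of bulb or striatum RNA in this difference was not tested. Leaving out 1 mouse at a time gave -0.53 to -0.41. The slope of Cacna1i on the bulb score within groups was -0.02 (SE 0.025, not tested).

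In the other T-type genes, WT-Flx and WT-Veh values overlapped. Cacna1g, which underlies much of the T-type current of thalamic relay neurons, was at 4730, 3884, 3533 and 4136 in WT-Veh and 3395, 3209, 3432 and 4314 in WT-Flx. Of the WT-Flx samples, 3 were below all WT-Veh samples and WT-Flx 4 was not (log2 change -0.18, SE 0.119). The change of Cacna1g was -0.27 (SE 0.101) with the bulb score as a covariate and -0.07 (SE 0.108) with the striatum score. It was -0.21 without WT-Veh 1, WT-Flx 1, WT-Flx 4 and HT-Veh 4. Without the 5 samples of high bulb score, where 1 WT-Flx sample remained, it was -0.16. In HT mice Cacna1g was at 4414, 4623, 3668 and 3654 with vehicle and 4169, 5214, 4897 and 3482 with fluoxetine. These groups overlapped over most of their range (0.11, SE 0.124, 95% interval -0.16 to 0.38, limma adjusted p = 1.00). Cacna1h, a T-type gene also known from sensory neurons, was at 2149, 1790, 1718 and 1819 in WT-Veh and 1779, 1887, 1746 and 2488 in WT-Flx. Its highest value in each of WT-Veh, WT-Flx and HT-Veh was in a sample of high bulb score. HT-Veh mice had 2127, 1713, 2101 and 2506 and HT-Flx mice 2364, 2314, 1798 and 2169 for Cacna1h. The fluoxetine change of Cacna1h was 0.07 (SE 0.126) in WT and 0.04 (SE 0.117) in HT, the latter with a limma adjusted p of 1.00.

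Among the P/Q-, N- and R-type genes, low values gathered in the samples of high bulb score. Cacna1b, the N-type pore gene of presynaptic terminals, was at 2796, 5163, 6210 and 4918 in WT-Veh, 3533, 4165, 4843 and 4075 in WT-Flx, 5398, 5293, 4798 and 4086 in HT-Veh, and 4799, 5347, 4725 and 4547 in HT-Flx. The 5 lowest of these 16 values were those of the 5 samples of high bulb score. Cacna1e, which encodes the R-type pore, was at 6147, 9625, 8967 and 10117 in WT-Veh, 6471, 10465, 8425 and 7595 in WT-Flx, 10413, 10220, 9580 and 8441 in HT-Veh, and 9653, 10199, 9310 and 10303 in HT-Flx. WT-Veh 1 and WT-Flx 1 had the lowest Cacna1e values. WT-Flx 2, whose bulb score was also high, had the highest. Cacna1a, mutated in hereditary ataxia and migraine in humans, was the steadiest of the 3 genes. It was at 5928, 7294, 7109 and 6934 in WT-Veh, 6864, 5465, 6572 and 6514 in WT-Flx, 6346, 6640, 6464 and 5611 in HT-Veh, and 6811, 6453, 7392 and 6314 in HT-Flx. Its 3 lowest values were in WT-Flx 2, HT-Veh 4 and WT-Veh 1.

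The L-type genes had the lowest levels per kilobase of exon together with Cacna1h. Cacna1c, the main L-type gene of heart and cortex, was at 2613, 3174, 2759 and 2752 in WT-Veh, 2196, 2980, 2584 and 2897 in WT-Flx, 3107, 3352, 3139 and 2958 in HT-Veh, and 2827, 2868, 3383 and 2843 in HT-Flx. HT-Veh was the highest group, and it overlapped WT-Veh through WT-Veh 2. Cacna1d, whose channel opens at more negative voltages than that of Cacna1c, was at 2488, 2737, 2391 and 2435 in WT-Veh, 2007, 2898, 2722 and 2676 in WT-Flx, 2759, 2663, 2443 and 2771 in HT-Veh, and 2855, 2414, 2861 and 2424 in HT-Flx. All of its groups overlapped, and WT-Flx 1 held the lowest value.

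To ask whether the Arid1b mutation alone was accompanied by a change, HT-Veh was compared with WT-Veh. None of the 7 alpha-1 genes tested passed the adjusted threshold of 0.05 or an unadjusted p under 0.05 in limma (background: 0.0178% of all genes past the adjusted threshold and 4.88% past the unadjusted one). Of the genes tested, Cacna1e (log2 change 0.17, SE 0.146), Cacna1h (0.17, SE 0.115) and Cacna1c (0.15, SE 0.075) had the largest differences, each with an adjusted p of 0.922. That of Cacna1e was 0.01 without WT-Veh 1 and 0.07 without the samples of high bulb score. Cacna1a had a log2 change of -0.12 (SE 0.084). With the bulb score as a covariate, the changes were -0.15 for Cacna1a (SE 0.041), 0.20 for Cacna1h (SE 0.075) and 0.14 for Cacna1c (SE 0.057). None of these passed the adjusted threshold (limma adjusted p-values of 0.251, 0.402 and 0.453). Their unadjusted p-values were under 0.05, but the share of all genes under 0.05 is not given for this fit. The median over the 8 genes was 0.08, beside 0.01 over all genes.

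Early fluoxetine in HT mice gave no call either. In HT-Flx versus HT-Veh 0 of 8 alpha-1 genes passed the adjusted threshold, and 0 passed an unadjusted p under 0.05 in limma (background 0% and 3.07%). Log2 changes ran from -0.08 (Cacna1c, SE 0.075) to 0.11 (Cacna1g, SE 0.124). The 95% intervals of the 8 genes lay within -0.24 and 0.38.

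**Figure D3:**
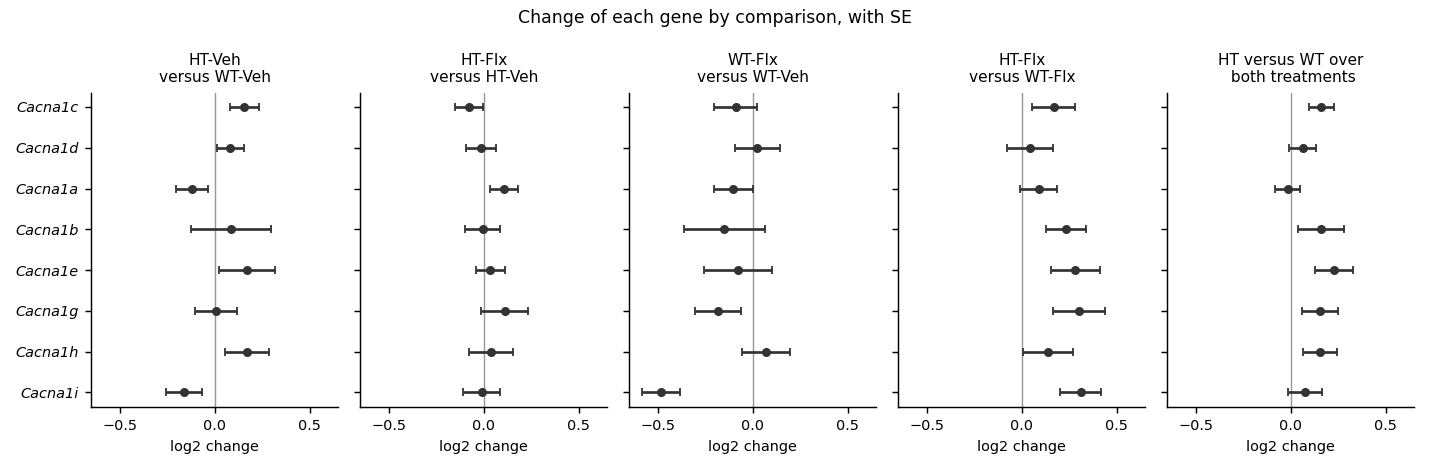
Log2 change of each alpha-1 gene (horizontal axis, log2(value + 1) scale) in 5 comparisons, with points for the limma estimate and bars for its SE; comparisons share samples. Cacna1i in WT-Flx versus WT-Veh lies farthest from 0 (-0.48, the value it was chosen for). All 8 genes lie above 0 in HT-Flx versus WT-Flx, which shares the WT-Flx samples that chose Cacna1i.

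The genotypes were also compared after fluoxetine, in HT-Flx versus WT-Flx, which shares the WT-Flx samples with the comparison that chose Cacna1i. The 7 genes tested all had estimates above 0, against 51.6% of all genes. So had Cacna1i (0.31), which was chosen for its low values in WT-Flx. With Cacna1i included, the median of the 8 genes was 0.20, against 0.01 over all genes. The genes share the same samples, so their signs are not independent. None of the 7 genes tested passed the adjusted threshold (background 0.0417%). Cacna1g (0.30, SE 0.135), Cacna1e (0.28, SE 0.128) and Cacna1b (0.23, SE 0.104) passed an unadjusted p under 0.05, as did 10.4% of all genes. Their limma adjusted p-values were 0.470, 0.472 and 0.470. Exact permutation tests gave 0.143, 0.143 and 0.114 for these genes. All of the groups overlapped. WT-Flx is the group with 3 samples of high bulb score and HT-Flx has none. The scores of the groups did not overlap (5.24 to 9.16 in WT-Flx, 4.17 to 5.01 in HT-Flx). An estimate with the bulb score as a covariate therefore rests on a straight line extended between the groups. On that basis the changes were 0.44 for Cacna1g, 0.28 for Cacna1e and 0.09 for Cacna1b. Without the 5 samples of high bulb score, which left 1 WT-Flx sample, they were 0.35, 0.23 and 0.00, and Cacna1d, at 0.04 with all samples, was at -0.05. Without WT-Veh 1, WT-Flx 1, WT-Flx 4 and HT-Veh 4, which kept WT-Flx 2 with the highest Cacna1e value, the change of Cacna1e was 0.07 (SE 0.101). The change of Cacna1h, 0.14 (SE 0.130), became 0.50 with the covariate (unadjusted p = 0.0148, limma adjusted p = 1.00). The part of bulb RNA in these differences was otherwise not tested.

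Over both treatments, HT mice had higher estimates than WT mice for 7 of the 8 genes (51.1% of all genes were above 0), the exception being Cacna1a (-0.02, SE 0.066). None of the 7 genes tested passed the adjusted threshold (background 0.0398%), and 2 passed an unadjusted p under 0.05, as did 11.9% of all genes. Cacna1c had a log2 change of 0.16 (SE 0.066, unadjusted p = 0.0254, limma adjusted p = 0.391) and an exact permutation p of 0.0245. Cacna1e had 0.23 (SE 0.101, unadjusted p = 0.0385, limma adjusted p = 0.408) and an exact permutation p of 0.0641. Cacna1c and Cacna1e are singled out for their small p in the same samples, so the permutation p-values are not separate support. The bulb score was lower in HT than in WT mice (means 5.13 and 6.66 over 8 samples each). With the score as a covariate the change was 0.14 for Cacna1c and 0.10 for Cacna1e, that of Cacna1h went from 0.15 to 0.28 (unadjusted p = 0.00162, limma adjusted p = 0.370), and that of Cacna1b went from 0.16 to -0.04. The change of Cacna1e was 0.13 without the 5 samples of high bulb score and 0.07 when WT-Flx 2 was kept.

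The bulb score itself was followed by some alpha-1 genes more than by others. Within groups, 2 of the 7 genes tested passed the adjusted threshold for a slope on the score, as did 12.5% of all genes. Cacna1b fell by 0.14 on the log2 scale per unit of score (SE 0.027, limma adjusted p = 0.00372). Cacna1h rose by 0.09 (SE 0.023, limma adjusted p = 0.0170). Cacna1e (-0.09, SE 0.029, limma adjusted p = 0.0531) and Cacna1a (-0.05, SE 0.017, limma adjusted p = 0.0616) missed the threshold, and the slopes of Cacna1c, Cacna1d, Cacna1g and Cacna1i lay between -0.02 and 0.03. WT-Veh 1 weighed heavily on these calls. Without it, the slope of Cacna1b was -0.07 (limma adjusted p = 0.445) and that of Cacna1h 0.13 (limma adjusted p = 0.0862), and none passed. Without HT-Veh 4 the slope of Cacna1h was 0.08 (limma adjusted p = 0.0537). Without WT-Flx 1 or without WT-Flx 2, 4 genes passed, with Cacna1a and Cacna1e added, and without WT-Flx 4, 3 passed, with Cacna1a added.

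**Figure D4:**
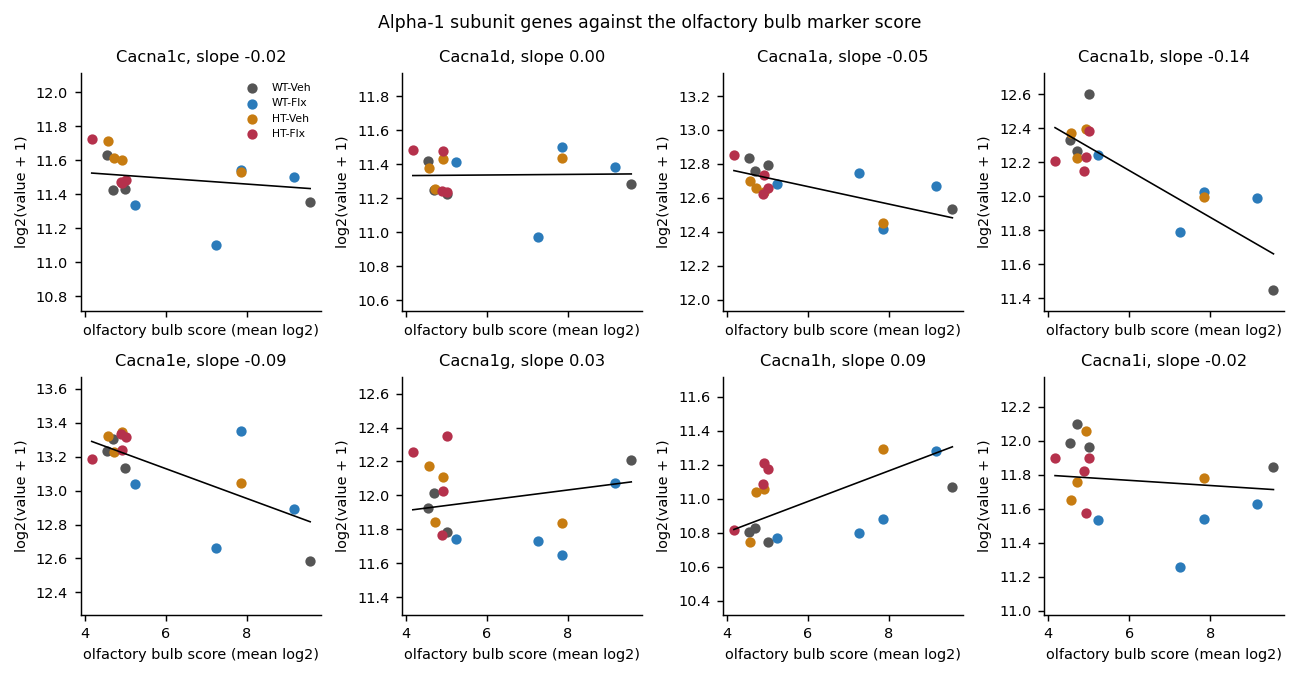
Log2(value + 1) of each alpha-1 gene (vertical axes, equal span) against the olfactory bulb score (horizontal axis, mean log2 of 9 markers) in the 16 samples, coloured by group; lines have the slope fitted within groups and pass through the overall mean. Cacna1b falls and Cacna1h rises with the score (slopes -0.14 and 0.09), and Cacna1i has a slope of -0.02.

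Channel partners and calcium handling genes were described from 8 lists of 53 genes, of which 52 were in the table. None passed the adjusted threshold in any of the comparisons between groups that were tested (limma; at an unadjusted p under 0.05 the counts were 3 of 51 in HT-Veh versus WT-Veh, 1 of 51 in HT-Flx versus HT-Veh, 9 of 51 in HT-Flx versus WT-Flx and 12 of 52 over both treatments, beside 4.88%, 3.07%, 10.4% and 11.9% of all genes). The alpha-2-delta subunit gene Cacna2d2 had the smallest p in HT-Flx versus HT-Veh. It was at 1186, 1266, 1273 and 1219 in HT-Veh and 974, 1164, 1158 and 939.8 in HT-Flx. The groups did not overlap (log2 change -0.23, SE 0.087, limma adjusted p = 1.00, exact permutation p = 0.0286, the smallest possible), as in 1.99% of all genes. Cacna2d2 was named for its small p in the same samples, so the permutation p is not separate support. Rimbp2, which links calcium channels to the release machinery, followed in the same comparison (0.26, SE 0.118, limma adjusted p = 1.00), and had the second smallest p in HT-Flx versus WT-Flx (0.43, SE 0.128, unadjusted p = 0.00566, limma adjusted p = 0.335). It was at 6196, 7302, 7244 and 6000 in HT-Veh, 6844, 10263, 7792 and 7317 in HT-Flx, and 5610, 5340, 6868 and 5895 in WT-Flx. HT-Flx 2 was far above the other HT-Flx mice. Both changes are given without the bulb score as a covariate.

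In HT-Veh versus WT-Veh the smallest p-values were those of Cabp1, a calcium-binding channel modulator (-0.19, SE 0.074, limma adjusted p = 0.922), and of the plasma membrane calcium pump gene Atp2b4 (0.40, SE 0.161, limma adjusted p = 0.922). Atp2b4 was also first over both treatments (0.41, SE 0.121, unadjusted p = 0.00308, limma adjusted p = 0.269, exact permutation p = 0.0102), with means of 9485 in HT and 7196 in WT mice. Calm3, a calmodulin gene, came next (-0.15, SE 0.047, limma adjusted p = 0.298, exact permutation p = 0.000816). Atp2b4 and Calm3 were named for their small p in the same samples, so their permutation p-values are not separate support. The changes of Cabp1, Atp2b4 and Calm3 are given without the bulb score as a covariate. Cacng5, named as a gamma subunit gene, had the smallest p in HT-Flx versus WT-Flx (-1.75, SE 0.436, limma adjusted p = 0.289). Its values were 342, 576, 202 and 1359 in WT-Flx against 122, 173, 125 and 156 in HT-Flx. The groups did not overlap, as in 5.83% of all genes, and with the bulb score as a covariate the change was 0.01. The bulb scores of these groups did not overlap either, so that estimate rests on extending a line between them. In WT-Flx versus WT-Veh, given without a test, Cacng4 had a log2 change of 0.31 (SE 0.163) and Calm2 of 0.17 (SE 0.093). That of Cacng4 was 0.04 without the 5 samples of high bulb score, where 1 WT-Flx sample remained.

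Many of these genes followed the bulb score: 5 rose and 13 fell past the adjusted threshold (limma), of 52 tested, beside 12.5% of all genes. Of the genes named as gamma subunits, Cacng5 (slope 0.68, SE 0.038, limma adjusted p = 4.56e-09) and Cacng4 (0.12) rose, while Cacng2 (-0.07) and Cacng3 (-0.08) fell. The beta subunit gene Cacnb4 fell (-0.11), and 0 of 4 alpha-2-delta genes passed. Among channel regulators, Stac rose (0.54), and the presynaptic scaffold genes Rims1 (-0.17), Rims2 (-0.09) and Rimbp2 (-0.11) fell. The calcium-activated potassium channel gene Kcnma1 fell (-0.16), as did the calcium pump genes Atp2b2 (-0.14) and Atp2b3 (-0.19) and the sodium-calcium exchanger gene Slc8a2 (-0.09), while Slc8a3 rose (0.15). The kinase genes Camk2a (-0.14), Camk2g (-0.09) and Camk4 (-0.23) fell, and Cacna1s rose (0.46). Without WT-Veh 1, 3 of these 18 genes passed (Cacng4, Cacng5 and Slc8a3), and all 18 had slopes of the same sign. Cacnb4 was close to the threshold (limma adjusted p = 0.0369) and missed it without any of several other mice.

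The genes whose values were most like each member over the 16 samples were found by Pearson correlation of log2(value + 1) among 12541 genes with a mean of at least 100, and are a description. The samples share their bulb content, so likeness includes it. For Cacna1i they were Dgkd (r = 0.84), Cds2 (0.81), Bri3bp (0.79), Cadps (0.79) and Uhrf1bp1 (0.76). The closest genes were Cdk12 (0.97), Htt (0.94) and Sptb (0.94) for Cacna1b and Xkr4 (0.96), Samd12 (0.96) and Zkscan16 (0.96) for Cacna1e. They were Mical2 (0.85), Apln (0.84) and Acss2 (0.83) for Cacna1a, Prrx1 (0.83), Adarb1 (0.83) and Tmem72 (0.82) for Cacna1c, and Rbm25 (0.86), Ptpn13 (0.85) and Rbm41 (0.85) for Cacna1d. For the remaining T-type genes they were Wdr5 (0.76), Cdca4 (0.72) and Car7 (0.72) for Cacna1g and Pnrc2 (0.86), Rcan3 (0.82) and Ssr3 (0.79) for Cacna1h.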

How the data were processed

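Medial prefrontal cortex of 16 mice was sequenced, 1 sample per mouse, in 4 groups of 4 taken from the sample titles. Per the study's methods and the labels, the authors made stranded poly-A libraries, sequenced them as read pairs, quantified transcripts with Salmon (1.1.0) on GRCm38 with GC bias correction, summed them to genes with tximport and scaled them in DESeq2 (1.30.1). The deposited values are this signal, normalized read counts, in 1 table of 18424 genes, and 18411 of their Ensembl identifiers had a symbol. All 16 columns were used. Replicates were not pooled.

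The values are not counts. Between 18.3 and 54.9% of the values under 10 in a sample lay near multiples of 1 step (within 0.05 of a step), which gave only an approximate depth, so reads were not recovered and no interval or floor for counting error is given. Each comparison was fitted with limma 3.58.1 (R 4.3.3, intensity trend) on log2(value + 1) over all genes that reached 10 in 4 or more of its samples, with Benjamini-Hochberg adjustment over all of them and a threshold of 0.05. Fits between groups used the samples of those groups, the comparison over both treatments used 16 samples with treatment as a covariate, and the bulb slope used 16 samples with the group as a term. Log2 changes understate those of low genes. Single genes were also compared by exact permutation (two-sided, smallest p 0.0286 for 4 against 4 mice, permuted within treatments for genotype). P-values measure the spread between these mice. Fluoxetine was given to the dams, and no dam or litter is named for any mouse. Mice of the same litter may therefore have been counted as separate mice, and the spread between litters was not measured. Scripts were tested on simulated data.

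The members and the gene lists were chosen with earlier results of these data known, and Cacna1i for its difference in WT-Flx versus WT-Veh, so that comparison and the interaction have no test here, and Cacna1i is tested in HT-Flx versus HT-Veh alone. The text names the 8 members, the 2 other pathway genes with the smallest p in each comparison, those past the threshold for the bulb slope, and the 3 genes most like each member (5 for Cacna1i). 1 pathway gene is not reported here and was left out of the list counts. No gene set test was made. Alternatives were the pseudocount (0.1 and 8), the filter (none, or a mean of at least 100), scaling to a common upper quartile, the bulb score as covariate, a replicate block, all 4 groups in the fit, and leaving out each mouse or 4 samples with much bulb RNA (WT-Veh 1, WT-Flx 1, WT-Flx 4 and HT-Veh 4). The striatum score as covariate, the length used per kilobase, and leaving out all 5 samples with a bulb score above 6 were added after seeing the data.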

Additional observations from a re-analysis of the deposited data

Results flagged for a closer look

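In each group of 4, the highest and lowest value was set against the other 3 for the 8 alpha-1 genes and the olfactory bulb and striatum scores, 40 groups in all, of which 4 had a sample far from the rest (its gap to the nearest other sample took 0.859 to 0.920 of the range, past the 95% limit of Dixon's test). Chance alone gives about 1 in 20 such groups. Cacna1c was at 3383 in HT-Flx 3, above the other HT-Flx mice (2827 to 2868). The bulb score was 9.56 in WT-Veh 1 and 7.85 in HT-Veh 4, each the highest of its group, and 4.17 in HT-Flx 3, the lowest of its group.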

How the results depend on the processing

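The number of alpha-1 genes past the adjusted threshold was 0 in each comparison between groups under every alternative, except 1 in WT-Flx versus WT-Veh without WT-Veh 1, WT-Flx 1, WT-Flx 4 and HT-Veh 4; this gene was Cacna1i, and the comparison is the one it was chosen in, so the count supports nothing. For the bulb slope, 2 genes passed, and 0 to 4 when 1 mouse was left out. The deviations of samples with the same replicate number had correlations of -0.225 to 0.31 over 24 pairs, 9 above 0.1. Samples with different numbers were not compared in this way, so the check cannot decide whether the numbers pair the mice. With a replicate block 1 gene (Cacna1b) passed for the bulb slope, Cacna1h missed (slope 0.073) and the slope of Cacna1c was 0.0054; 12 of the 18 pathway genes still passed, and in the group comparisons the block changed no count. Cacna1e passed for the slope with the striatum score as a covariate (limma adjusted p = 0.0484) and with a mean of at least 100 (0.0490). Cacng5 passed in HT-Flx versus WT-Flx without WT-Flx 3 (log2 change -2.17, limma adjusted p = 0.0475). Signs changed only for differences that had not passed the threshold. Those 4 samples have much bulb RNA, but so has WT-Flx 2, which that setting keeps (score 7.86). Without the 4, log2 changes were -0.067 for Cacna1b in HT-Veh versus WT-Veh, 0.0060 for Cacna1d and -0.030 for Cacna1e in HT-Flx versus HT-Veh, -0.095 for Cacna1d in HT-Flx versus WT-Flx, and 0.0080 for Cacna1a and -0.014 for Cacna1d over both treatments. Without the 5 samples with a bulb score above 6 they were -0.067, 0.0060 and -0.030 for the first 3, -0.050 for Cacna1d in HT-Flx versus WT-Flx, and -0.044 for Cacna1b over both treatments. With the bulb score as a covariate they were -0.018 for Cacna1e in HT-Flx versus HT-Veh, -0.039 for Cacna1b over both treatments and 0.015 for Cacng5 in HT-Flx versus WT-Flx. The cause of these changes was not tested.

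When 1 mouse was left out, log2 changes that crossed 0 ranged from -0.151 to 0.232 (Cacna1b) and -0.059 to 0.082 (Cacna1g) in HT-Veh versus WT-Veh; from -0.090 to 0.044 (Cacna1b), -0.055 to 0.027 (Cacna1d), -0.030 to 0.071 (Cacna1e), -0.058 to 0.125 (Cacna1h) and -0.066 to 0.071 (Cacna1i) in HT-Flx versus HT-Veh; from -0.072 to 0.105 (Cacna1d) in HT-Flx versus WT-Flx; and from -0.056 to 0.016 (Cacna1a) over both treatments. Slopes that crossed 0 ranged from -0.0051 to 0.012 (Cacna1d) and -0.0044 to 0.057 (Cacna1g).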
